A study of Mus musculus with 24 samples.

Results

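Interferon-induced genes and the genes of MHC class I antigen presentation, 39 of the 54232 genes in the deposited count table, were followed in laser-captured retinal pigment epithelium (RPE) of clock-mutant and wild-type mice. The set was assembled after Irgm1, an interferon-induced GTPase, had been seen among the strongest differences over circadian time in the mutant libraries of this same table. Levels of these genes over the mutant times, the genotype difference at a single time and the change of that difference over time are therefore given as description and not as tests. Every one of the 39 genes was matched to a row of counts and passed the filter on low counts.

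The RPE, the pigmented layer behind the retina that takes up shed photoreceptor outer segments, was cut from snap-frozen eyes of male mice aged 6 weeks, and poly(A) RNA libraries were sequenced. The mutant mice carried Per1-/-Per2Brdm1 and are called KO; the others are called WT, and both were of the strain C57BL/6/J x 129 SvEvBrd. Eyes were taken at circadian times CT19, CT22, CT1 and CT10, with 3 libraries for each genotype and time, 24 in all. Names with a joined number, such as 3and5, mark libraries that pool RPE of 2 eyes, and 4 of the 5 pools were KO. Whether each library came from its own mouse is not stated in the labels, so p-values measure only the spread among these libraries, which may be technical.

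Libraries held 16245067 to 32066263 counts and 19030 to 24072 detected genes. The RPE genes Rpe65 and Rlbp1 were abundant in every library, at 2809 to 7229 and 1549 to 4689 CPM (counts scaled to 1000000 per library), as was Ttr at 13780 to 31370 CPM, whereas Best1, another RPE marker, reached at most 1.91 CPM and was at 0 in 1 library. The mutated genes did not settle the labels. Per1 averaged 141.6 ± 35.6 CPM in KO and 45.9 ± 5.85 CPM in WT at CT19, and 95.8 ± 20.5 CPM in KO and 130.6 ± 49.1 CPM in WT at CT10 (SD, n = 3 each). Per2 averaged 105.6 ± 26.9 CPM in KO and 25.35 ± 4.81 CPM in WT at CT19, and 96.7 ± 5.47 CPM in KO and 136.9 ± 38.6 CPM in WT at CT10 (SD, n = 3 each). The KO means of both genes were also above those of WT at CT22 and CT1, and at CT1 Per2 had the lowest p of all genes (edgeR quasi-likelihood, adjusted p = 7.79e-05). Counts over the whole gene cannot show a deleted stretch, and KO names the libraries that carry that label.

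Interferons signal through cell-surface receptors and STAT proteins, which enter the nucleus and switch on a shared set of defence genes. Type I interferons act mainly on the interferon-stimulated response element (ISRE) of these genes, and interferon gamma on the gamma-activated site (GAS). Among the induced genes, the immunity-related GTPases (IRGs) and guanylate-binding proteins (GBPs) attack the vacuoles of intracellular pathogens. MHC class I molecules display peptides cut by the immunoproteasome and carried by the TAP transporter to CD8 T cells. In the eye, the RPE forms the outer blood-retina barrier and can take on antigen presentation after exposure to interferon gamma.

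The promoters of several of these genes hold both elements close together. Printed here are 6 that show the ISRE alone or with the GAS, in genes whose levels are described below. The sequences are from RefSeq on GRCm38.p6, read 5′ to 3′ on the strand of the gene and ending at or before the RefSeq start. Those of Irgm1, Irgm2 and Tgtp1 lie inside the span that GENCODE gives these genes, not upstream of it. Capitals mark the ISRE core, searched as the block GAAA followed by any 2 bases and a second GAAA, and the GAS, searched as TTCNNNGAA, each on both strands. The Irgm1 stretch is chr11:48871428-48871457 (minus strand), Igtp chr11:58199436-58199555 (plus), Irgm2 chr11:58214857-58214976 (plus), Tgtp1 chr11:48992259-48992366 (minus), Gbp7 chr3:142530216-142530335 (plus) and Ifit1 chr19:34640769-34640870 (plus). 
Irgm1: gtttcaaGAAATAGAAACCGAAActgattc
Igtp: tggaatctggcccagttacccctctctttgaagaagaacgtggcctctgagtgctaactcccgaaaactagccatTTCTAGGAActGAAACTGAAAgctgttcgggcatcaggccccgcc
Irgm2: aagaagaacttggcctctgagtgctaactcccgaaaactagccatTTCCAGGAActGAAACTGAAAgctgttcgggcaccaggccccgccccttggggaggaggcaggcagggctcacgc
Tgtp1: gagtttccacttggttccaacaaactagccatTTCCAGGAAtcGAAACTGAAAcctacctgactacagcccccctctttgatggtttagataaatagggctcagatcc
Gbp7: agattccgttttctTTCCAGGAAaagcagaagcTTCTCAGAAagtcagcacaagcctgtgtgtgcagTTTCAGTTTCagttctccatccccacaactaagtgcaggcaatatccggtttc
Ifit1: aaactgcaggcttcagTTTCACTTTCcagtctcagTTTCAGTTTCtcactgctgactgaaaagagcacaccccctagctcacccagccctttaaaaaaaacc
In the IRG genes Igtp, Irgm2 and Tgtp1 a GAS stood 2 bases from an ISRE core. Irgm1 held a pair of overlapping ISRE cores, Ifit1 a pair in the reverse orientation, and Gbp7 a pair of GAS and a reversed ISRE. The Irgm2 window does not open a transcript of the GENCODE annotation. Of the 37 windows of the set 29 do, and all 37 were searched. RefSeq windows were found for 31 of the 39 genes, and 250 bases before the start were searched. The ISRE core was in 15 of the 31 (48.4%), against 936 of all 27025 genes with a RefSeq window (3.46%). The GAS was in 10 (32.3%), against 2197 genes (8.13%). The E-box CACGTG, to which clock activators bind, was in 1, the immunoproteasome gene Psmb10 (3.23%), against 1854 genes (6.86%). In Bst2 a GAS and an ISRE core overlapped.

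Across the set, KO libraries of CT10 carried the highest levels. The mean over the 39 genes of log2(CPM + 1) was 3.25 ± 0.12, 3.48 ± 0.28, 3.71 ± 0.14 and 4.16 ± 0.32 in KO at CT19, CT22, CT1 and CT10, against 3.41 ± 0.20, 3.61 ± 0.27, 3.41 ± 0.32 and 3.68 ± 0.19 in WT (SD, n = 3 each). The 3 KO CT10 libraries lay between 3.92 and 4.53, above the other 9 KO libraries at 3.17 to 3.87 and above the 12 WT libraries, of which CT10 gave 3.46 to 3.82. Summed CPM of the 39 genes overlapped within KO, at 1209 to 1700 at CT10 and 746 to 1235 at other times. In WT the sum reached at most 1149 at CT10 and 1164 at other times. Group means peaked at CT10 in KO for 32 genes (82.1%, against 22.5% of all 20275 genes tested) and were lowest at CT19 for 31 (79.5%, against 22.3%). In WT, the highest mean fell at CT10 for 15 genes (38.5%, against 29.7% of all genes). The deviation map by library shows the block of KO CT10 columns. In bulk RNA, fewer cells of a type and less RNA per cell cannot be told apart.

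**Figure D1:**
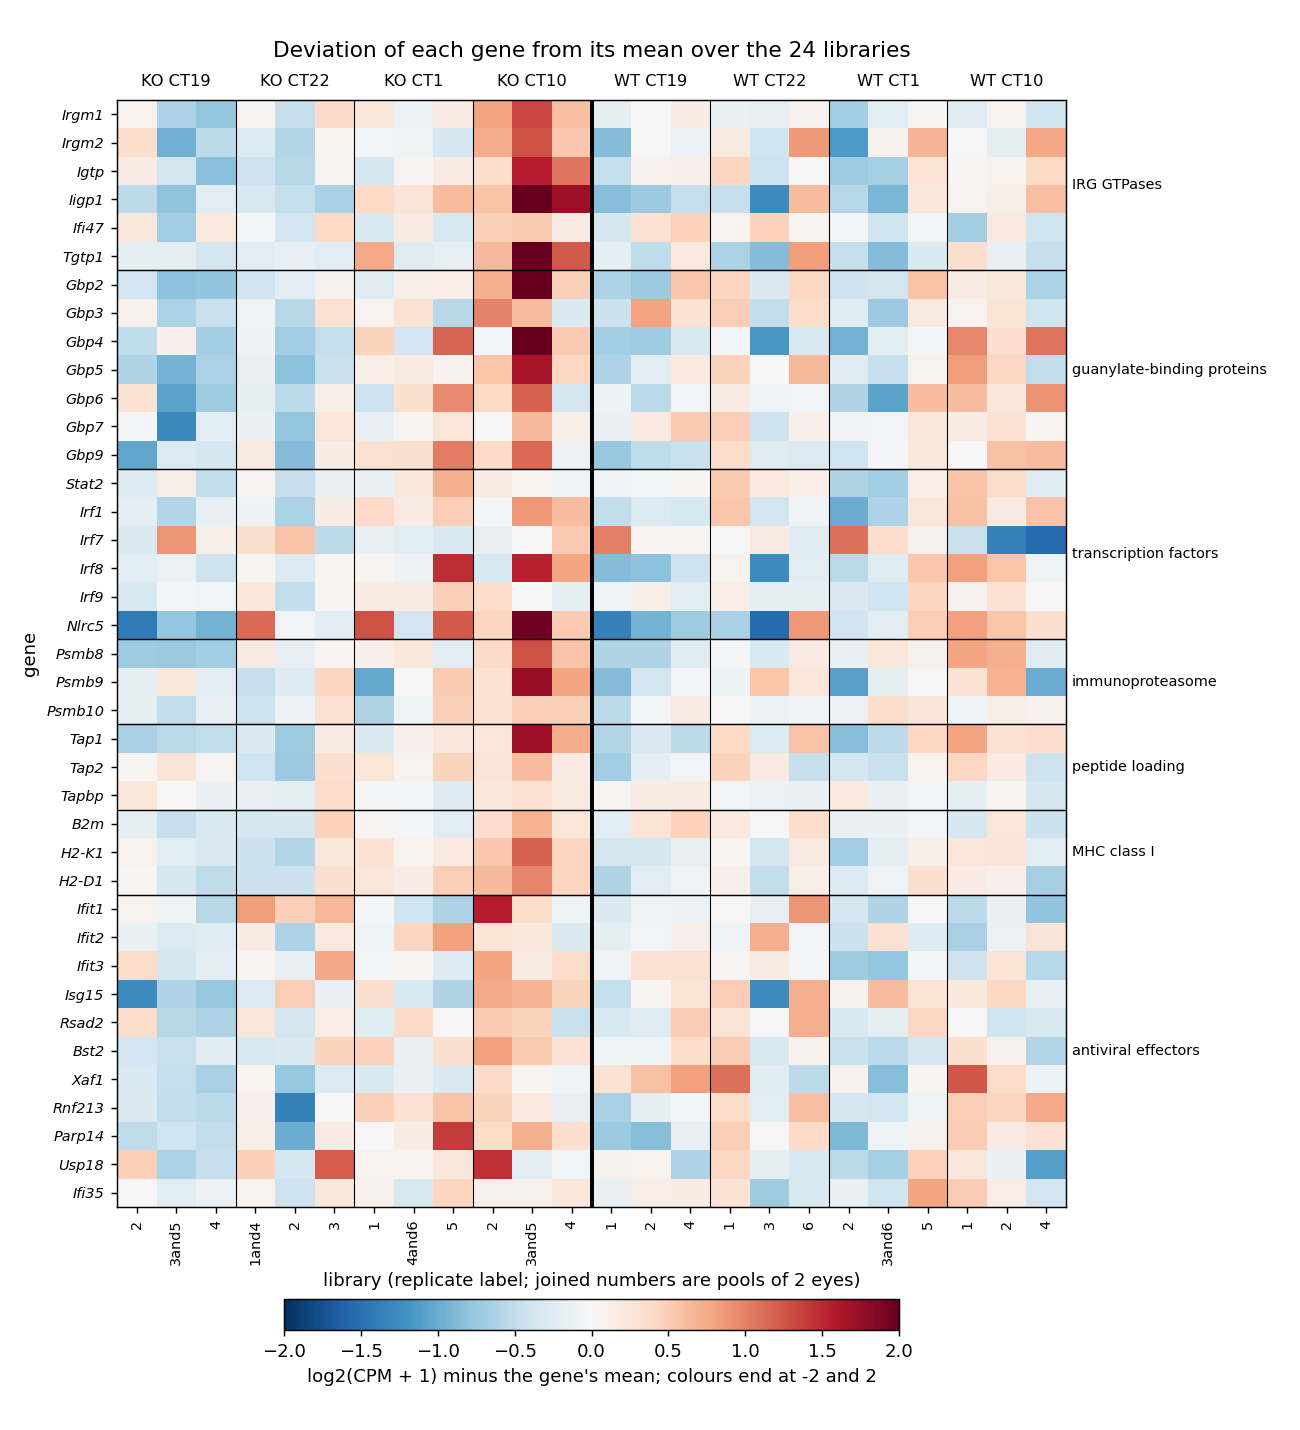
Heat map of log2(CPM + 1) minus the mean of each gene over the 24 libraries, with 39 genes in rows by role and libraries in columns, KO to the left of WT and times in the order CT19, CT22, CT1, CT10; colours end at -2 and 2. The KO CT10 columns are mostly red, and KO CT10 library 3and5 is the highest of all libraries for 23 genes.

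A single library stood out within that group. KO CT10 library 3and5, a pool of 2 eyes, was the highest of the 24 libraries for 23 of the 39 genes (59%), against 1.71% of all genes tested. KO CT10 library 2 was highest for 6 (15.4%, against 2.23%): Gbp3, Ifit1, Ifit3, Isg15, Bst2 and Usp18. The 23 genes of library 3and5 included all 6 IRGs, all 3 immunoproteasome subunits and all 3 MHC class I chains. The CT10 level in KO minus the mean of the other 3 KO times had a median of 0.69 on the log2 scale over the 39 genes and was above 0 for 39, against a median of 0.03 and 54.7% above 0 over all genes. Without library 3and5 the median was 0.52 and 38 genes were above 0, against 0.01 and 50.9% over all genes. The same difference in WT had a median of 0.24, with 27 genes above 0 (69.2%), against a median of -0.04 and 47.2% above 0 over all genes.

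The regulatory IRGs come first. Irgm1 (chr11:48861968-48871683, minus strand, GRCm38), which keeps effector IRGs off the cell's own membranes, stood at 37.1, 53.8 and 32.2 CPM in KO CT10 libraries 2, 3and5 and 4. The other 9 KO libraries ran from 11.8 to 27.4 CPM with a median of 21.6, and the 12 WT libraries from 12.6 to 23.2 CPM with a median of 18.8. All 3 KO CT10 libraries exceeded every other library, and the single-eye libraries 2 and 4 did so without the pool. The group means over CT19, CT22, CT1 and CT10 were 15.6 ± 5.41, 21.3 ± 6.26, 22.2 ± 2.84 and 41.0 ± 11.3 CPM in KO (SD, n = 3 each), a fitted range of 1.39 on the log2 scale, against a range of 0.26 in WT. At CT10 the KO minus WT difference was 1.16 on the log2 scale (SE 0.26), and 0.86 without library 3and5.

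Igtp (chr11:58199556-58207591, plus strand), also known as Irgm3, had 12.3, 29.8 and 20.8 CPM in KO CT10 libraries 2, 3and5 and 4, against 9.58, 9.91 and 12.7 CPM in WT CT10. The other KO libraries lay at 4.85 to 10.6 CPM, below all 3, whereas WT libraries reached 13 CPM and overlapped the lowest. Irgm2, a regulatory IRG whose annotated exons share 162 bases with Igtp on the same strand, had 11.2, 16.7 and 9.57 CPM in KO CT10 and 6.35, 5.39 and 11.5 CPM in WT CT10. The KO CT10 libraries were above the other KO libraries, which reached 8.26 CPM, and overlapped WT. Reads of the shared bases make the values of Igtp and Irgm2 uncertain.

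Effector IRGs load onto pathogen vacuoles. Iigp1 (chr18:60376027-60392634, plus strand), with a fitted range over KO times of 3.21 on the log2 scale, had 4.72, 31.8 and 11.6 CPM in KO CT10 libraries 2, 3and5 and 4. The other KO libraries ran from 1.21 to 4.96 CPM with a median of 2.08, and the WT libraries from 0.595 to 4.996 CPM with a median of 1.78. Libraries 3and5 and 4 were above all others, and library 2 was inside both ranges. KO minus WT at CT10 came to 2.12 (SE 0.61) on the log2 scale, and 1.09 without library 3and5. Its range was the widest of the 39 genes only with that library. Without it, Iigp1 had 2.225, below Isg15 at 2.955 and Nlrc5 at 2.77.

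Tgtp1 (chr11:48985327-48994172, minus strand) showed the same order at a lower level, with 1.87, 7.65 and 3.29 CPM in KO CT10 libraries 2, 3and5 and 4, against 1.31, 0.647 and 0.327 CPM in WT CT10. It was at 0 in 2 WT libraries of other times, and its near copy Tgtp2 makes its counts uncertain. Ifi47 had 14.7, 15.2 and 11.6 CPM in KO CT10 and 6.07, 11.9 and 7.61 CPM in WT CT10, and the groups overlapped by a single pair. Over the 6 IRGs the median KO minus WT difference at CT10 was 1.06 on the log2 scale and the median range over KO times 1.43, against 0.09 and 0.63 over all genes. Without library 3and5 these medians of the IRGs were 0.71 and 1.14.

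**Figure D2:**
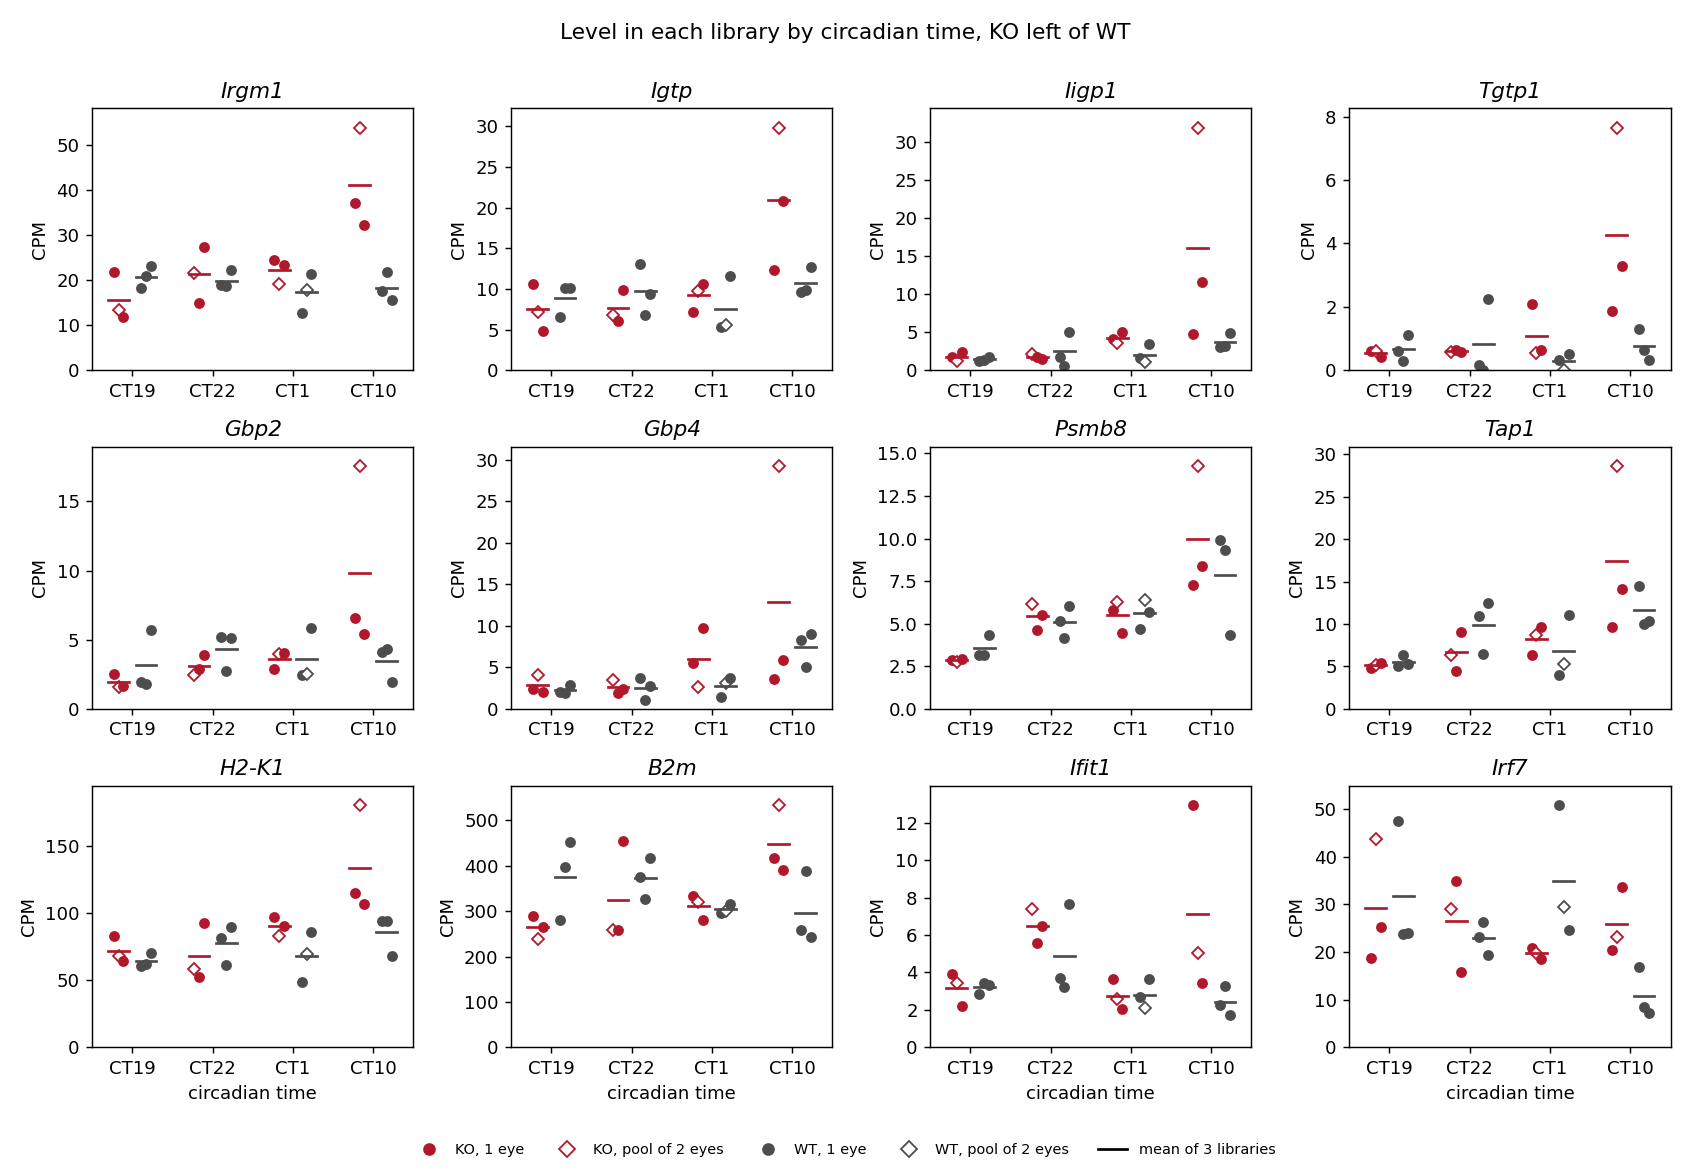
CPM of 12 genes in each library at CT19, CT22, CT1 and CT10, KO to the left of WT; filled circles are single eyes, open diamonds pools of 2 eyes and lines means of 3 libraries. The KO CT10 pool is the top point for Irgm1, Igtp, Iigp1, Tgtp1, Gbp2, Gbp4, Psmb8, Tap1, H2-K1 and B2m but not for Ifit1 or Irf7.

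The GBPs assemble on vacuoles and feed the inflammasome. Gbp2 (chr3:142620602-142638008, plus strand) had 6.54, 17.5 and 5.38 CPM in KO CT10 libraries 2, 3and5 and 4, and the other KO libraries 1.58 to 4.03 CPM with a median of 2.87. WT libraries lay at 1.78 to 5.82 CPM with a median of 3.44. All KO CT10 libraries were above the other KO libraries, and the lowest was inside the WT range. The KO minus WT difference at CT10 was 1.498 on the log2 scale (SE 0.51), and 0.71 without library 3and5.

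Gbp5 (chr3:142493978-142522344) had 4.32, 10.3 and 3.80 CPM in KO CT10, against 5.42, 3.79 and 1.56 CPM in WT CT10. The KO CT10 libraries exceeded the other KO libraries, at most 3.06 CPM, and overlapped WT CT10. For Gbp4 (chr5:105115767-105139586, minus strand), library 3and5 alone made the difference, with 3.65, 29.2 and 5.85 CPM in KO CT10 libraries 2, 3and5 and 4, against 8.27, 5.0 and 9.05 CPM in WT CT10. Its log2 difference at CT10 was 0.79 (SE 0.59), and -0.70 without library 3and5.

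Gbp3, the most abundant GBP per length of exon (7.33 CPM per kb), ranked its KO CT10 libraries differently, with 46.0, 35.6 and 18.4 CPM in libraries 2, 3and5 and 4, against 23.68, 27.6 and 17.0 CPM in WT CT10. The 2 sets overlapped. The median KO minus WT difference at CT10 over the 7 GBPs was 0.55 on the log2 scale with library 3and5 and -0.17 without it, so its sign rested on that library. Gbp7, whose promoter is printed above, had 23.9, 38.5 and 26.4 CPM in KO CT10 and 26.9, 29.9 and 24.7 CPM in WT CT10, which overlapped. GBPs are a family of near copies, and how reads were shared between them is not given in the sources used here.

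Transcription factors of the pathway had a median range of 0.72 in KO and 1.16 in WT over the 4 times on the log2 scale. Their median KO minus WT difference at CT10 was 0.25, and -0.20 without library 3and5. Stat2 (chr10:128270559-128292849), the STAT specific to type I and III interferon signalling, had 62.0, 58.6 and 52.6 CPM in KO CT10 and 83.3, 72.2 and 46.9 CPM in WT CT10. The groups overlapped and the fitted range over KO times was 0.50 on the log2 scale. Irf1 and Irf8, which drive interferon gamma responses and myeloid genes, had 15.7 to 30.5 and 3.60 to 15.9 CPM in KO CT10, against 18.6 to 24.9 and 4.42 to 9.15 CPM in WT CT10, so both overlapped.

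Irf7 (chr7:141262706-141266481, minus strand), which amplifies type I interferon production and is named after its values were seen, differed on the WT side. It had 20.5, 23.1 and 33.7 CPM in KO CT10 libraries 2, 3and5 and 4, against 16.8, 8.49 and 7.29 CPM in WT CT10 libraries 1, 2 and 4. The 9 WT libraries of the other times lay at 19.4 to 50.8 CPM, above all 3 of WT CT10, and the other KO libraries at 15.9 to 43.8 CPM around KO CT10. The KO minus WT difference at CT10, 1.25 on the log2 scale (SE 0.37), was 1.26 without library 3and5.

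Nlrc5 (chr8:94434356-94527272), the transactivator of MHC class I genes, had 4.14, 13.8 and 4.49 CPM in KO CT10, against 5.79, 4.66 and 3.77 CPM in WT CT10. At CT19 it averaged 0.893 ± 0.41 CPM in KO and 0.945 ± 0.414 CPM in WT (SD, n = 3 each). Both genotypes had their lowest mean at CT19 and their highest at CT10, and the fitted range was 3.05 in KO and 2.32 in WT on the log2 scale.

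The immunoproteasome replaces the catalytic subunits of the standard proteasome with PSMB8, PSMB9 and PSMB10. Psmb8 (chr17:34197721-34201454) had 7.30, 14.2 and 8.37 CPM in KO CT10, against 9.90, 9.31 and 4.34 CPM in WT CT10. KO CT10 libraries were above the other KO libraries, at most 6.30 CPM, and overlapped WT CT10. Psmb9 had 3.87, 12.5 and 5.94 CPM in KO CT10 and 3.88, 5.48 and 1.02 CPM in WT CT10, also overlapping. Psmb10 (chr8:105935735-105938444, minus strand) had 11.4, 13.4 and 13.3 CPM in KO CT10 and 8.73, 10.1 and 9.82 CPM in WT CT10, with no overlap. Exons of Psmb9 and Tap1 share 212 bases on opposite strands, and the strand setting of the counting is not given, so their counts are uncertain.

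Peptides reach MHC class I through the TAP1 and TAP2 transporter and the bridging protein tapasin, encoded by Tapbp. Tap1 (chr17:34187553-34197225) had 9.70, 28.6 and 14.1 CPM in KO CT10 libraries 2, 3and5 and 4, against 14.5, 9.96 and 10.3 CPM in WT CT10. The KO CT10 libraries were above the other KO libraries, at most 9.59 CPM, yet the KO minus WT difference at CT10 was 0.59 with library 3and5 and -0.02 without it on the log2 scale. Tapbp (chr17:33915899-33929292) had 86.3, 91.1 and 84.2 CPM in KO CT10, against 65.7, 75.8 and 58.2 CPM in WT CT10, and the 2 sets did not overlap. Its level in KO at other times ran from 62.2 to 96.0 CPM and covered that of CT10.

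The MHC class I chains were the most abundant of the set with Bst2 and Tapbp, and B2m, the light chain, led with 392.2 CPM per kb of exon. B2m (chr2:122147686-122153083) had 417.1, 534.0 and 390.0 CPM in KO CT10 libraries 2, 3and5 and 4, against 259.5, 388.0 and 243.8 CPM in WT CT10. These sets did not overlap, but KO libraries of other times reached 455.7 CPM and WT libraries of other times 451.9 CPM. For B2m, KO minus WT at CT10 was 0.59 on the log2 scale (SE 0.23), and 0.38 without library 3and5. In WT the B2m mean was 376.4 ± 87.4 CPM at CT19 and 297.1 ± 79.1 CPM at CT10 (SD, n = 3 each).

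The heavy chain gene H2-K1 (chr17:33996017-34000347, minus strand) had 114.5, 180.2 and 106.5 CPM in KO CT10, against 94.0, 94.3 and 68.1 CPM in WT CT10. All 3 KO CT10 libraries were above the other KO libraries, at most 96.6 CPM, and above all 12 WT libraries. H2-D1 (chr17:35262730-35267499) had 101.6, 128.5 and 88.0 CPM in KO CT10, against 73.0, 69.6 and 40.3 CPM in WT CT10. It did not overlap between genotypes at CT10, and the highest of the other KO libraries, 91.4 CPM, was above the lowest KO CT10 library. The H2 genes are near copies of one another and their counts are uncertain.

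Among the 3 KO CT10 libraries, library 2 was the highest for 9 of the 11 antiviral effectors, library 3and5 for Parp14 and library 4 for Ifi35. Library 3and5 was the highest of the 3 for 24 of the other 28 genes. How all genes tested divide among the 3 libraries was not computed, so this split is description only. Of all genes, 2.23%, 1.71% and 1.69% had libraries 2, 3and5 and 4 as the highest of all 24 libraries. Ifit1 (chr19:34640871-34650009), which binds viral RNA, had 12.9, 5.04 and 3.46 CPM in KO CT10 libraries 2, 3and5 and 4, against 2.29, 3.28 and 1.72 CPM in WT CT10. Library 2 was above all others, while KO CT22 averaged 6.48 ± 0.896 CPM (SD, n = 3), more than libraries 3and5 and 4. On the log2 scale, KO minus WT at CT10 was 1.56 (SE 0.45), and 1.68 without library 3and5. Bst2 (chr8:71534255-71537456, minus strand), or tetherin, which holds budding virus at the cell surface, had 45.9, 37.1 and 31.6 CPM in KO CT10 and 32.2, 27.3 and 16.8 CPM in WT CT10, with a narrow overlap.

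Isg15 (chr4:156199424-156200818, minus strand), a ubiquitin-like modifier, had 3.03, 2.84 and 2.26 CPM in KO CT10 and 1.78, 2.198 and 1.15 CPM in WT CT10, which did not overlap. At CT19 its KO mean was 0.325 ± 0.29 CPM, with a library at 0, and its WT mean 1.35 ± 0.587 CPM (SD, n = 3 each). The fitted range over KO times was 3.02 on the log2 scale, on counts near 0 at the low end. Usp18, which strips ISG15 from proteins, had 8.32, 1.88 and 2.26 CPM in KO CT10 and 2.94, 2.07 and 0.573 CPM in WT CT10.

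Xaf1 (chr11:72301629-72313733), a pro-apoptotic interferon target named after its values were seen, went the other way, with 14.2, 11.1 and 9.91 CPM in KO CT10 and 26.5, 14.0 and 9.86 CPM in WT CT10. At CT19 it averaged 7.40 ± 1.02 CPM in KO and 16.5 ± 3.03 CPM in WT (SD, n = 3 each). It lies 3.19 Mb from Per1, the nearest of 9 genes of the set on chromosome 11, the furthest being Rnf213 at 50.3 Mb. Among the 9 are the IRGs Igtp and Irgm2, at 10.9 Mb each, and Ifi47, Tgtp1 and Irgm1, at 20 to 20.2 Mb. For all 9, a difference carried with the mutated locus and an effect of the mutation cannot be told apart.

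The genotype average, the mean of the KO minus WT differences at the 4 times, was tested across all genes, although the KO CT10 libraries that led to the choice of genes enter it. With edgeR's quasi-likelihood test and a Benjamini-Hochberg threshold of 0.05, 0 of the 39 genes passed, against 0.375% of all genes tested, and DESeq2 also called 0, against 0.88%. At an unadjusted p of 0.05, 7 passed (17.9%, against 7.07% of all genes), and without library 3and5 the number was 3 (7.69%, against 6.68%). The 7 were Irgm1, Iigp1, Irf8, H2-K1, H2-D1 and Ifit1, higher in KO, and Xaf1, lower in KO.

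The values behind them were modest. In log2 units and by edgeR's quasi-likelihood test, Iigp1 had a genotype average of 0.74 (SE 0.30, adjusted p = 0.552) and of 0.49 without library 3and5 (adjusted p = 0.836), Irgm1 0.30 (SE 0.13, adjusted p = 0.578) and Xaf1 -0.59 (SE 0.19, adjusted p = 0.329). H2-K1 and H2-D1 had 0.25 (SE 0.11) and 0.26 (SE 0.12), and B2m -0.02 (SE 0.11). The average was above 0 for 28 of the 39 genes (71.8%, against 54.7% of all genes), with a median of 0.08, against 0.02 over all genes. Without library 3and5 it was above 0 for 23 (59%, against 51.2%). Role medians ran from 0.02 for the GBPs and the immunoproteasome to 0.25 for the MHC class I chains, and without that library from -0.12 for the GBPs to 0.17 for the MHC class I chains.

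**Figure D3:**
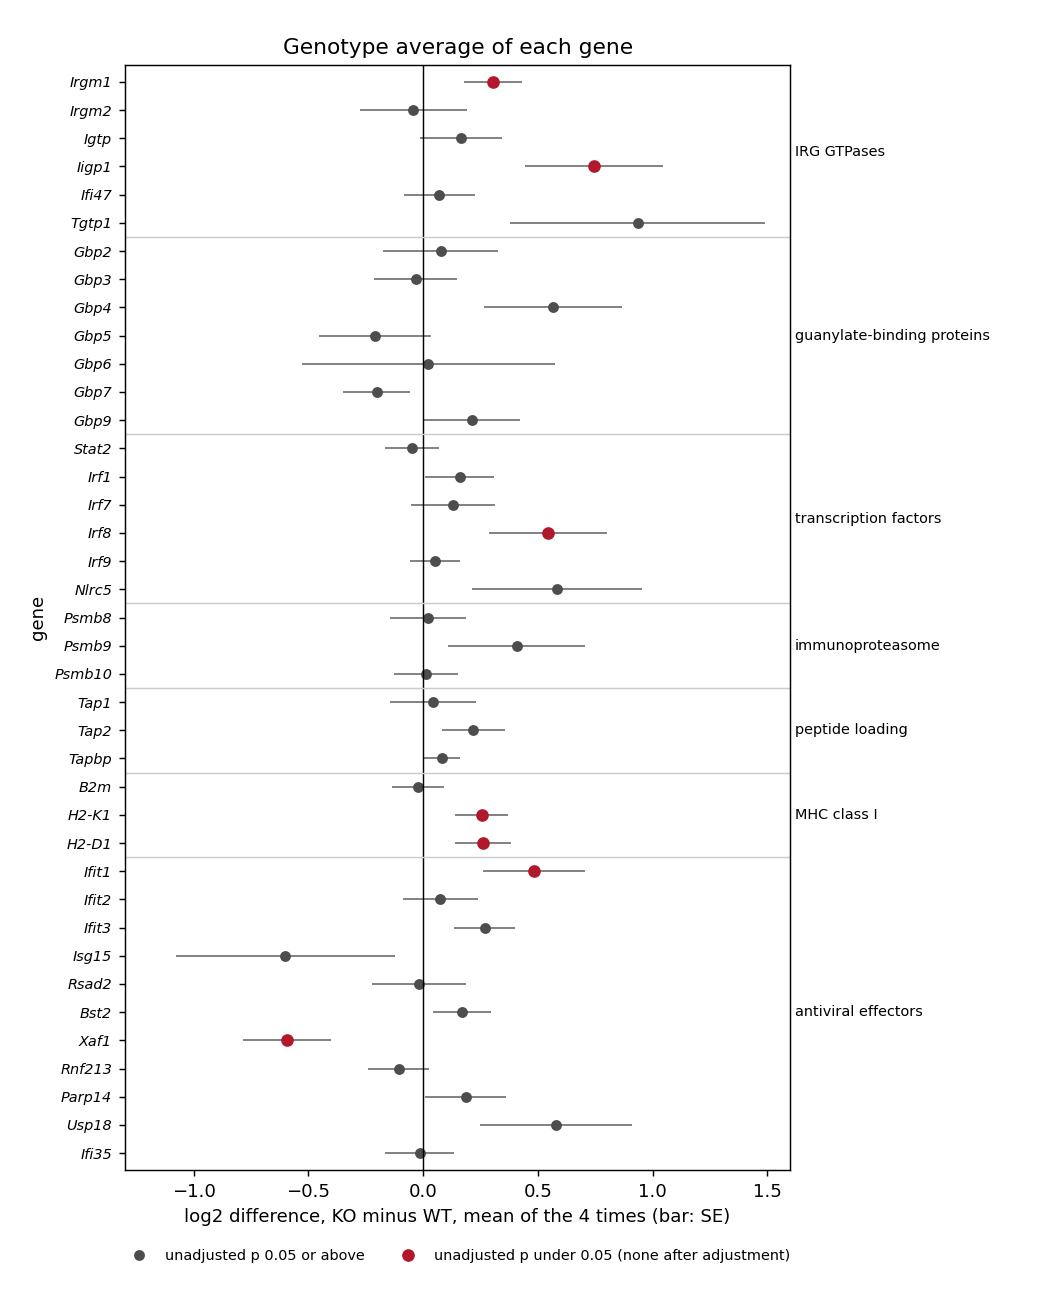
Genotype average of each of the 39 genes as a log2 difference, KO minus WT over the 4 times, with bars of 1 SE and genes grouped by role; red points had an unadjusted p under 0.05. The 7 red points are Irgm1, Iigp1, Irf8, H2-K1, H2-D1 and Ifit1 to the right of 0 and Xaf1 to the left, and none passed after adjustment.

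Time differences in WT, which played no part in the choice of genes, were tested in the same fit. With edgeR (quasi-likelihood, Benjamini-Hochberg), 0 of 39 genes passed, against 0.947% of all genes. At an unadjusted p of 0.05, 8 passed (20.5%, against 19.3% of all genes): Gbp4, Stat2, Irf1, Irf7, Psmb8, Tap1, Rnf213 and Parp14. DESeq2 called 3, Irf7 (adjusted p = 0.00842), Psmb8 (adjusted p = 0.0407) and Rnf213 (adjusted p = 0.0196), while it called 8.21% of all genes, a share no lower than that of the set. Irf7 had the lowest edgeR adjusted p, 0.0634, over a fitted range of 1.69 on the log2 scale, with CT10 the lowest time. The median fitted range in WT was 0.67, against 0.72 over all genes. Gbp4 was the only gene of the set whose 3 WT CT10 libraries exceeded the other 9 WT libraries (3.05% of all genes), and Irf7 the only one below them (3.21%).

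Over the KO times, described only, the edgeR quasi-likelihood fit with Benjamini-Hochberg adjustment called 0 of the 39 genes and 0% of all genes. At an unadjusted p of 0.05 it gave 21 (53.8%, against 11.7% of all genes), and without library 3and5 15 (38.5%, against 10.5%). The median fitted range was 0.97 on the log2 scale and ran from 0.26 for Ifi35 to 3.21 for Iigp1, against a median of 0.63 over all genes. In 8 genes all 3 KO CT10 libraries were above the other 9 KO libraries (20.5%, against 0.35% of all genes): Irgm1, Irgm2, Igtp, Gbp2, Gbp5, Psmb8, Tap1 and H2-K1. Without library 3and5 the count was again 8 (against 1.36% of all genes), without library 2 it was 13 (against 1.24%) and without library 4 it was 15 (against 0.932%). Without library 3and5, 25 genes peaked at CT10, against 23% of all genes.

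At single times, also described only, the KO minus WT difference was above 0 for 11 genes at CT19, 13 at CT22, 30 at CT1 and 34 at CT10. These were 28.2%, 33.3%, 76.9% and 87.2% of the set, against 48.6%, 52.7%, 49.3% and 55.5% of all genes. The medians were -0.16, -0.23, 0.36 and 0.59 on the log2 scale, against -0.01, 0.03, -0.01 and 0.09 over all genes. At CT10 no gene of the set passed the adjusted threshold of edgeR (0.0345% of all genes did). At an unadjusted p of 0.05, 14 were higher in KO (35.9%, against 10.7% of all genes), and all 3 KO libraries were above all 3 WT libraries for 11 (28.2%, against 17.7%). Without library 3and5, 5 were higher in KO at that p (12.8%, against 7.69% of all genes), and both remaining KO libraries were above all 3 WT libraries for 12 (30.8%, against 24.4%). The difference at CT10 was then above 0 for 24 genes (61.5%, against 50.5% of all genes) with a median of 0.31, against 0.01 over all genes.

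Lists of markers of RPE and of other cells had median differences in the same direction as the set at some times, given as description only. Over all genes the medians were -0.01, 0.03, -0.01 and 0.09 at CT19, CT22, CT1 and CT10. Rlbp1 is on both the RPE list and the Müller cell and astrocyte list. In medians of KO minus WT on the log2 scale, the 16 endothelial genes stood at -0.49, -0.53, 0.36 and -0.02 at CT19, CT22, CT1 and CT10, and the 11 mural genes at -0.41, -0.63, 0.21 and -0.15. The 10 fibroblast genes stood at -0.32, -0.54, 0.35 and -0.12. The 22 RPE genes had -0.22, -0.11, 0.20 and 0.35 and the 10 Müller cell and astrocyte genes -0.17, -0.18, -0.36 and 0.49 at the 4 times. The 19 rod genes had 0.42, 1.10, -1.29 and 0.35. The part of these cells in the values of the set was not tested.

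The KO minus WT difference of Irgm1 varied over the 4 times by 1.57 on the log2 scale. It was the only gene of the 39 past the threshold for genotype by time (edgeR quasi-likelihood with Benjamini-Hochberg adjustment, adjusted p = 0.0446), a threshold that 4.62% of all genes passed. DESeq2 called 5, Irgm1, Stat2, Irf7, Bst2 and Rnf213 (12.8%, against 16.3% of all genes), and edgeR with no filter on low counts called 6 (15.4%, against 8.22%). This contrast holds the KO times that led to Irgm1, so it is no support for it. The call was lost in 17 of 24 fits with 1 library left out, among them that without KO CT10 library 3and5 (edgeR adjusted p = 0.111, range 1.26). At an unadjusted p of 0.05, 9 genes of the set passed (23.1%, against 22.3% of all genes).

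Markers of immune cells moved with the KO CT10 libraries in part. MHC class II genes, carried by antigen-presenting cells, with all 7 listed detected, summed to 152.1 to 415.3 CPM in KO CT10 and 59.8 to 162.8 CPM in KO at other times. In WT they summed to 96.9 to 177.0 CPM at CT10 and 48.5 to 237.8 CPM at other times. The lymphocyte list, 18 of 22 genes tested, summed to 10.8 to 46.3 CPM in KO CT10, 4.25 to 33.3 CPM in KO at other times, 9.58 to 13.1 CPM in WT CT10 and 5.80 to 13.8 CPM in WT at other times. Its genes Cd3d, Cd8b1 and Klrb1c were at 0 in at least 12 of the 24 libraries.

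KO CT10 library 3and5 was the highest of all libraries for 11 of the 22 lymphocyte genes and 6 of the 7 MHC class II genes. Of all genes tested, 1.71% were highest in that library. Cd3e and Trbc2, components of the T-cell receptor complex named after their values were seen, had 2.66 and 4.58 CPM in it. Over the 18 lymphocyte genes tested, KO minus WT at CT10 was above 0 for 13 (72.2%, against 55.5% of all genes) and below 0 for 5. The macrophage list, 24 of 24 tested, had no gene at 0 in 12 or more of the 24 libraries. It summed to 550.0 to 594.4 CPM in KO CT10 and 323.3 to 630.6 CPM in KO at other times. In WT it summed to 515.5 to 627.2 CPM at CT10 and 413.3 to 614.5 CPM at other times. Csf1r, the receptor for a macrophage growth factor, made up most of that sum, with 470.5, 393.6 and 368.2 CPM in KO CT10 and 454.2, 466.6 and 446.8 CPM in WT CT10. With each gene weighted alike, as mean log2(CPM + 1), the macrophage list stood at 1.88, 2.09, 2.72 and 2.75 in KO at CT19, CT22, CT1 and CT10, against 1.95, 2.06, 2.43 and 2.46 in WT, with KO CT1 close to KO CT10. The complement gene C1qa had 14.95, 11.7 and 16.3 CPM in KO CT10, against 8.22, 8.84 and 3.15 CPM in WT CT10, with no overlap. Cd68, a lysosomal protein of macrophages, had 8.59, 9.71 and 14.1 CPM in KO CT10 and 12.3, 18.3 and 10.1 CPM in WT CT10, which overlapped. Ptprc, the pan-leukocyte gene for CD45, had 6.54, 15.9 and 9.61 CPM in KO CT10 and 7.01, 6.34 and 6.30 CPM in WT CT10, library 3and5 being the highest of the 24.

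The neutrophil, mast and dendritic cell list, 14 of 15 tested, summed to 54.5 to 74.4 CPM in KO CT10, 21.6 to 81.4 CPM in KO at other times, 20.4 to 48.6 CPM in WT CT10 and 20.9 to 60.5 CPM in WT at other times. Ly6g, Retnlg and Xcr1 of that list were at 0 in at least 12 libraries. KO CT10 library 3and5 was the highest of all libraries for 6 of the 15 genes and library 4 for 3, against 1.71% and 1.69% of all genes tested. The part of these cells in the levels of the interferon-induced genes was not tested.

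**Figure D4:**
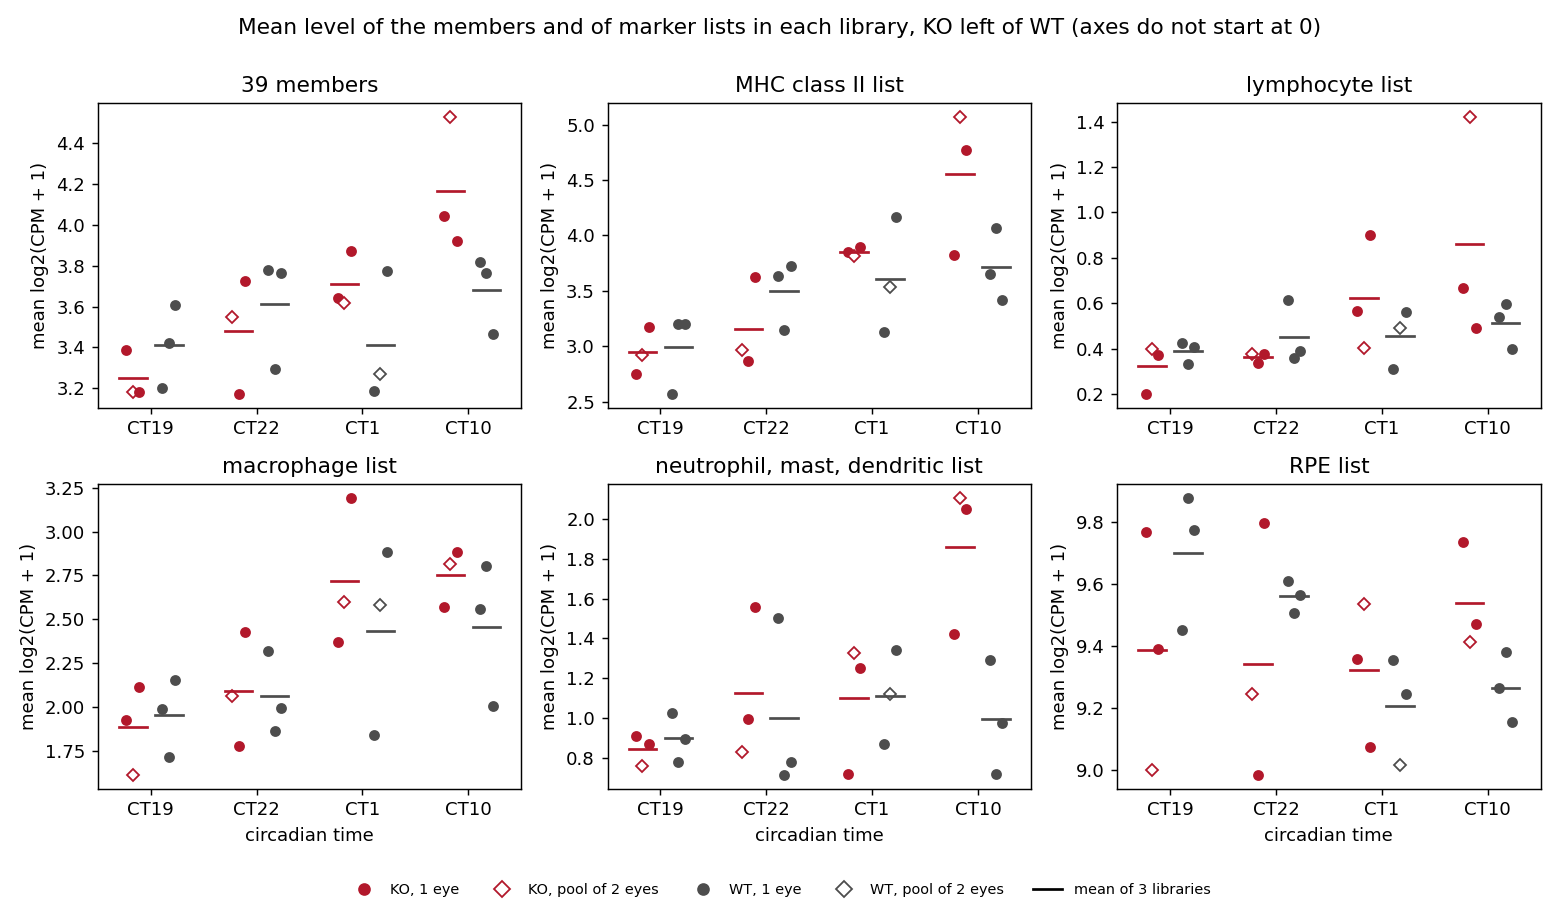
Mean log2(CPM + 1) over the 39 genes and over 5 marker lists in each library at CT19, CT22, CT1 and CT10, KO to the left of WT; filled circles are single eyes, open diamonds pools of 2 eyes and lines means of 3 libraries, on axes that do not start at 0. KO CT10 is highest for the 39 genes, at 3.92 to 4.53, and the KO CT10 pool is also the top point of the MHC class II, lymphocyte and neutrophil, mast and dendritic lists.

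Interferon genes themselves were scarcely counted. Ifna1, Ifna2, Ifna4, Ifnb1, Ifnl2, Ifnl3, Ifne and Ifnk had 0 counts in all 24 libraries, which allows up to 0.0936 to 0.185 CPM of a library's total, for counting error alone and at 3 counts a library. Ifng, the ligand of the interferon gamma receptor, had counts in 4 libraries and at most 5 in any. The receptor genes Ifnar1, Ifnar2, Ifngr1, Ifngr2, Ifnlr1 and Il10rb were counted in all 24.

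Other genes of the pathway were read from 6 lists. In the genotype average, edgeR with Benjamini-Hochberg adjustment called 0 genes in each of them. The lists were ligands and receptors (6 of 15 tested), signalling (14 of 14), nucleic acid sensing (21 of 23) and other interferon-stimulated genes (86 of 91). The remaining lists were other MHC class I genes (30 of 33) and subunits of the standard proteasome (14 of 14). That of other MHC class I genes also held genes outside MHC class I, such as Calr and Cd8a. In WT over the 4 times, 1 gene passed, Irf2bp1, a cofactor of IRF2, with a fitted range of 0.71 on the log2 scale (edgeR quasi-likelihood adjusted p = 0.0386). The median KO minus WT log2 differences at CT10, for description, were 0.16 for ligands and receptors, 0.18 for signalling and 0.08 for sensing. They were 0.24 for other interferon-stimulated genes, 0.32 for other MHC class I genes and 0.43 for the standard proteasome, against 0.09 over all genes. At CT1 the medians of the 6 lists, in the same order, were 0.14, -0.07, 0.30, 0.42, 0.21 and -0.31, against -0.01 over all genes. Sensing and other interferon-stimulated genes were thus further above 0 at CT1 than at CT10.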

How the data were processed

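The authors deposited raw counts per gene, whole numbers with no normalization, as a single table for 24 libraries. The tools named in the submitters' processing notes are HISAT2 2.1.0, HTSeq 0.11, Trimmomatic 0.32 and Cufflinks, with build GRCm38.p6; the annotation release and strand setting are not given in the sources used here. Library groups came from the labels. Counts were tested in edgeR 4.0.16 (R 4.3.3) with TMM scaling, filterByExpr (minimum count 10, 20275 genes kept) and a robust quasi-likelihood fit of 8 group means (16 residual degrees of freedom). P-values were adjusted by Benjamini-Hochberg over all genes tested, with a threshold of 0.05. CPM were computed here with TMM library sizes. DESeq2 1.42.0, other scalings, filters, covariates, a replicate block and leaving out libraries were alternatives. Scripts were tested on simulated data. No library repeated another of its group.

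The genes and the marker and pathway lists were chosen with earlier results of these data known. Described singly were the genes with the largest fitted range over KO times, the first gene of the set and the most abundant gene per length of each role; other genes were named after their values were seen. Coordinates and exon lengths are from GENCODE M21 on GRCm38. Mb21d1, Zufsp and H2-T9 were not matched.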

Additional observations from a re-analysis of the deposited data

Results flagged for a closer look

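The KO minus WT difference of Irgm1 ranged over 1.57 on the log2 scale across CT19, CT22, CT1 and CT10, and the test of that change across times passed its threshold (edgeR quasi-likelihood with Benjamini-Hochberg adjustment, adjusted p = 0.0446). The difference was -0.41 at CT19 (SE 0.25) and 1.16 at CT10 (SE 0.26). Irgm1 was the gene from which the set was chosen, on KO values that enter this contrast, so the result is a description. The threshold was missed with RLE scaling (edgeR adjusted p = 0.058), upper-quartile scaling (0.0626), the macrophage marker covariate (0.0522), the rod marker covariate (0.0773), the replicate block (0.262) and without the pooled libraries (0.27). With 1 library left out at a time, the adjusted p ran from 0.0224 to 0.111, the highest without KO CT10 library 3and5, and 17 of 24 such fits missed the threshold. The call was kept with no filter on low counts (adjusted p = 0.00278), a mean of at least 1 CPM (0.0486), dispersions without robust estimation (0.0485) and DESeq2 (0.0127).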

How the results depend on the processing

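For genes named singly, 1088 values were recomputed, genotype averages and ranges over the WT times. Of these, 1042 kept their direction and their side of the threshold, 4 newly passed it and 42 changed sign, none of them past the threshold. A range cannot change sign, so all 42 were genotype averages, and the count of 1042 says nothing about direction for the ranges. In the genotype average, where 0 genes of the set passed, no filter on low counts gave 1 (Xaf1, edgeR adjusted p = 0.0103). Of all genes tested 0.375% passed, against 1.16% with no filter, 0.178% with the replicate block, 0.572% with the macrophage covariate, 0.631% with the rod covariate, 0.88% by DESeq2 and 0.303% to 0.406% with a library left out. In WT over the 4 times, where 0 genes of the set passed, no filter gave 7 and the WT libraries fitted alone 1 (Rnf213). DESeq2 gave 3, the replicate block 0, and leaving out a library 0 to 1 (Rnf213, without KO CT22 replicate 2). Of all genes 0.947% passed, against 6.61% with no filter, 0.074% with the replicate block and 0.119% without pooled libraries. The share was 2.36% with the macrophage covariate, 4.66% with the WT libraries fitted alone and 8.21% by DESeq2. Leaving out a library gave 0.0751% (without WT CT10 replicate 1) to 3.21% (without KO CT22 replicate 2). With a pseudocount of 0.25, the mean over the set was 2.99 in KO at CT19, 3.55 in KO at CT1 and 3.19 in WT at CT19. Genotype averages near 0 changed sign: Gbp2 to -0.13 without pooled libraries and -0.0095 with the macrophage covariate (-0.12 to 0.25 with a library left out), Psmb8 to -0.10 and -0.0197 (-0.0806 to 0.0636), Psmb10 to -0.0024 with RLE scaling, -0.0076 with upper-quartile scaling, -0.082 with the macrophage covariate and -0.0024 by DESeq2 (-0.0837 to 0.0645), Gbp3 to 0.0716 with the rod covariate (-0.12 to 0.036), B2m to 0.0236 with the rod covariate (-0.11 to 0.024) and Stat2 to 0.0164 with a library left out (lowest -0.12). The causes were not tested.

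Replicate numbers did not pair the libraries: 7 of 30 same-number pairs correlated above 0.1 (-0.213 to 0.422), and 2 of 20 libraries correlated best with their own number. Depth and the 3 libraries of a group limit all comparisons, most of all for genes near 0 such as Tgtp1, Gbp6 and Isg15.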

Other observations

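The chemokine genes Cxcl9 and Cxcl10, which interferon gamma induces and which draw T cells, are named here after their values were seen. Cxcl9 had 2.00, 35.4 and 19.2 CPM in KO CT10 libraries 2, 3and5 and 4, against 0, 0.259 and 1.68 CPM in WT CT10. No other KO library exceeded 2.95 CPM and no WT library 1.68 CPM. Cxcl10 had 1.69, 13.9 and 5.89 CPM in KO CT10 and 0, 0.215 and 0.368 CPM in WT CT10. In both genes libraries 3and5 and 4 stood above every other library. Their genotype averages did not pass, at 1.05 on the log2 scale for Cxcl9 (SE 0.85, edgeR quasi-likelihood adjusted p = 0.891) and 2.28 for Cxcl10 (SE 0.65, adjusted p = 0.179).

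Other listed genes of the pathway also had their highest value in that group. Library 3and5 was highest for 14 of 90 other interferon-stimulated genes and for 6 of 32 genes of the list of other MHC class I genes. Of all genes tested, 1.71% were highest in it. Library 2 was highest for 11 of the 90, against 2.23% of all genes. The 14 included Ccl5 and the 6 included Cd8a, both also counted on the lymphocyte list above. The MHC class I gene H2-Q6 had 5.56, 10.3 and 5.30 CPM in KO CT10 and 4.81, 2.80 and 3.31 CPM in WT CT10, with no overlap.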
